A study of Mus musculus with 46 samples.

Results

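A set of 10 genes that mark injured or dedifferentiated tubule cells, out of 53465 genes in the expression table, was followed through 4 cell populations and 3 kinds of surgery. They were taken by name: Havcr1, Lcn2, Clu, Krt7, Krt8, Krt18, Krt19, Krt20, Cd44 and Prom1. All are protein-coding genes with a single entry in the table. Cells of mouse kidneys had been separated by fluorescence-activated sorting on Lotus lectin (LTL) for proximal tubular (PT) cells, F4/80 for macrophages, CD31 for endothelium and PDGFRβ for stroma, and their RNA was amplified as cDNA and sequenced. The kidneys came from male C57BL/6 mice aged 8 to 12 weeks, and no engineered allele is named for any group. Sham mice had surgery without obstruction, UUO mice had 1 ureter obstructed (unilateral ureteric obstruction), and rUUO mice had that obstruction reversed by reimplanting the ureter and were culled 14 days after reversal. UUO kidneys were taken at 2 or 7 days in the study, and the labels do not say which UUO sample belongs to which day. PT cells were represented by 3 sham, 4 UUO and 3 rUUO samples, macrophages by 4, 4 and 3, endothelial cells by 4, 3 and 4, and stromal cells by 4 in each group. Levels are given in FPKM, which corrects for transcript length and for the fragments mapped in each sample. A change is a difference between group means of log2(FPKM + 1), tested by limma with Benjamini-Hochberg adjustment over all genes tested in that population, and a gene is called at an adjusted p under 0.05.

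When a nephron segment is damaged, surviving epithelial cells flatten, lose transport functions and switch on a set of genes that are scarce in the healthy tubule. Havcr1 encodes KIM-1, a membrane receptor that lets tubule cells take up apoptotic debris. Lcn2 (NGAL, a siderophore-binding lipocalin) and Clu (clusterin, an extracellular chaperone) encode secreted proteins, and Cd44 and Prom1 encode membrane proteins. The keratins assemble into intermediate filaments as pairs of a type II chain (here Krt7 and Krt8) with a type I chain (here Krt18, Krt19 and Krt20). Simple keratins are normally most abundant in the collecting duct and the urothelium.

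The PT label of the samples was checked against marker genes. The 10 PT markers examined, of which Kap was the most abundant, summed to 5359 to 6497 FPKM in PT sham samples and to 99.9 to 576 FPKM in sham samples of the other 3 populations. FPKM sums ran from 586929 to 884982 over the 44 samples, and the 37 genes of the mitochondrial genome took 20.2 to 75.6% of them. For the PT groups the share lay at 68.9 to 75.6% (sham), 58.7 to 66.4% (UUO) and 68.1 to 71.3% (rUUO). The median change of all 11416 genes tested in PT cells from sham to UUO was 0.51, and it was 0.27 after the mitochondrial genes were left out of the scaling and −0.04 after quantile normalisation. Counts were not among the values, so the absolute depth is unknown. Relative depth, read from the steps between low values, ranged from 0.58 to 1.59 times its median. In bulk RNA of sorted cells, fewer cells of a type and less RNA per cell cannot be told apart.

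Of the 10 members, 8 rose in PT cells after UUO and remained above sham after reversal. Lcn2, Clu, Havcr1, Cd44, Krt7, Krt8, Krt18 and Krt19 were called higher in UUO than in sham, that is 8 of 9 members tested, where 27.9% of all genes tested were called higher. The same 8 were called higher in rUUO than in sham, where 6.52% of all genes were. The median change of the 9 members tested was 3.81 from sham to UUO and 3.34 from sham to rUUO, beside 0.51 and 0.21 over all genes tested. The sham means of Lcn2 (0.72 FPKM), Krt7 (0.71), Krt18 (0.78), Krt19 (0.13) and Cd44 (0.41) lay under the minimum mean of 1 FPKM for testing. These genes entered the test only through UUO and rUUO samples, where they are high. The counts and medians beside those of all genes are therefore descriptive. Prom1 was not called in either comparison, and Krt20 stayed under the minimum mean of 1 FPKM and was not tested with that filter on low values. None of these calls, in either comparison, was lost under the alternative settings tried or when any 1 sample was left out.

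**Figure D1:**
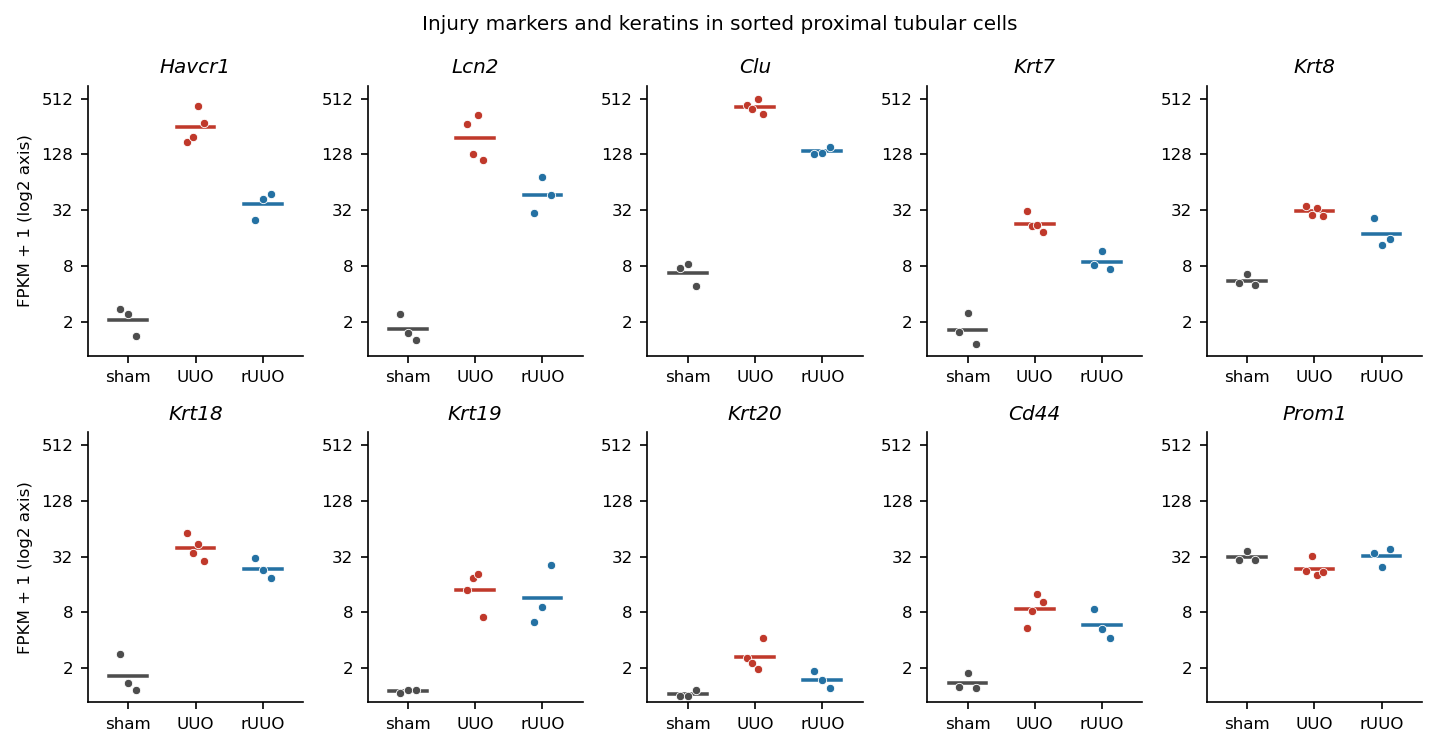
FPKM + 1 (log2 axis) of each of the 10 genes in PT samples, with 1 point per sample and a line at the mean of the log2 values for 3 sham, 4 UUO and 3 rUUO samples. Every UUO sample lies above every sham sample for 8 of the 9 genes tested, as for 34.5% of all genes tested, and for Krt20, while Prom1 lies between 18.98 and 37.9 FPKM in all 3 groups.

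The secreted markers rose from under 10 FPKM in sham PT cells to the level of the most abundant members after UUO. Lcn2 had 1.39, 0.51 and 0.26 FPKM in the sham samples, 268.13, 129.24, 339.3 and 109.16 FPKM in the UUO samples, and 29.08, 71.07 and 45.01 FPKM in the rUUO samples. Clu had 6.5, 7.39 and 3.85 FPKM in sham, 433.01, 395.93, 509.2 and 345.46 FPKM in UUO, and 126.66, 130.62 and 154.25 FPKM in rUUO. Every UUO sample exceeded every rUUO sample, and every rUUO sample exceeded every sham sample, for both genes. Clu was the most abundant member in UUO and in rUUO PT cells, with means of 421 ± 68.9 FPKM (SD, n = 4) and 137 ± 14.9 FPKM (SD, n = 3). From UUO to rUUO Lcn2 fell by 2.04 (SE 0.40, limma adjusted p = 0.0159) and Clu fell by 1.60 (SE 0.22, adjusted p = 0.00167). The share of the sham to UUO change that was still present in rUUO was 70.2% for Lcn2 and 73.1% for Clu on the log2 scale.

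Havcr1 is barely expressed in the healthy tubule and is used as an injury marker in urine. It had 1.71, 1.39 and 0.41 FPKM in PT sham samples, 173.63, 194.12, 429.1 and 281.3 FPKM in PT UUO samples, and 23.72, 41.63 and 47.24 FPKM in PT rUUO samples. The 3 groups did not overlap, and the mean in UUO was 230 times that in sham. Of the members, Havcr1 had the largest fall from UUO to rUUO, by 2.78 (SE 0.34, adjusted p = 0.000947), and kept the smallest share of its rise, 59.9%. Its mean in rUUO, 37.5 ± 12.3 FPKM (SD, n = 3), was still 32.1 times the sham mean, a change of 4.15 (SE 0.36, adjusted p = 5.81e-06).

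The membrane proteins Cd44, a receptor for hyaluronan and osteopontin, and Prom1, the cholesterol-binding protein of membrane protrusions also known as CD133, were called higher in PT cells and not called, respectively. Cd44 had 0.26, 0.76 and 0.21 FPKM in PT sham samples, 4.38, 7.32, 11.56 and 9.37 FPKM in UUO, and 7.58, 4.26 and 3.24 FPKM in rUUO. UUO and rUUO samples overlapped for Cd44 and both lay above sham. The change was 2.65 (SE 0.35, adjusted p = 6.70e-05) from sham to UUO and 2.05 (SE 0.37, adjusted p = 0.00311) from sham to rUUO, and the difference of −0.60 between rUUO and UUO was not called (95% interval −1.35 to 0.15).

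Prom1 was the most abundant member in sham PT cells. It had 28.61, 36.19 and 28.59 FPKM in sham, 21.1, 31.04, 18.98 and 20.97 FPKM in UUO, and 33.88, 23.69 and 37.9 FPKM in rUUO. UUO replicate 2 lay among the sham values and the other 3 UUO samples lay below them. The change from sham to UUO was −0.44 (SE 0.23, adjusted p = 0.166, 95% interval −0.94 to 0.07), below the median of all genes. It was called lower after rescaling without mitochondrial genes (−0.73, adjusted p = 0.0327) and after quantile normalisation (−0.77, adjusted p = 0.0294). Sham and rUUO differed by 0.01 (95% interval −0.52 to 0.55), and the sign of that difference changed with the scaling.

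The simple keratins rose together in PT cells after UUO, from different starting levels. Krt8 was present in sham at 4.25, 5.55 and 3.95 FPKM and reached 34.62, 27.24, 32.6 and 26.51 FPKM in UUO, with 25.27, 12.58 and 14.42 FPKM in rUUO. Its usual partner Krt18 had 1.81, 0.38 and 0.15 FPKM in sham, 56.06, 34.19, 42.54 and 27.93 FPKM in UUO, and 29.88, 21.87 and 17.73 FPKM in rUUO. Krt8 thus exceeded Krt18 in all 3 sham samples, and Krt18 exceeded Krt8 in every UUO and rUUO PT sample. The log2 ratio of Krt8 to Krt18 was 3.27 ± 1.82 (SD, n = 3) in sham, −0.37 ± 0.25 (SD, n = 4) in UUO and −0.45 ± 0.31 (SD, n = 3) in rUUO. The sham ratio ran from 1.23 to 4.72 and rests on Krt18 values near the floor, so its size is uncertain.

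Krt7 and Krt19, which mark collecting duct and other ductal epithelia, were at most 1.46 FPKM in every sham PT sample. Krt7 had 0.53, 1.46 and 0.15 FPKM in sham, 29.88, 20.52, 20.86 and 17.63 FPKM in UUO, and 7.25, 10.57 and 6.32 FPKM in rUUO. Krt19 had 0.08, 0.15 and 0.15 FPKM in sham, 12.83, 17.96, 19.7 and 6.08 FPKM in UUO, and 5.34, 8.14 and 24.65 FPKM in rUUO. Krt7 separated the 3 groups completely, whereas the highest Krt19 value of all PT samples was in rUUO replicate 4. The change from sham to UUO was 3.81 (SE 0.31, adjusted p = 5.87e-07) for Krt7 and 3.64 (SE 0.45, adjusted p = 3.90e-05) for Krt19. For Krt8 and Krt18 it was 2.49 (SE 0.26, adjusted p = 6.91e-06) and 4.60 (SE 0.33, adjusted p = 2.09e-07).

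Krt20, a type I keratin of the urothelium and gut that tubule cells acquire after injury, was the least abundant member in every group of every population. Its PT values were 0, 0 and 0.16 FPKM in sham, 1.54, 1.27, 0.96 and 3.23 FPKM in UUO, and 0.85, 0.49 and 0.23 FPKM in rUUO. The UUO samples lay above all rUUO and sham samples, and all 3 rUUO samples lay above sham. The mean over PT samples was below the minimum, so no test was made with the filter on low values. Krt20 was at or below 0.16 FPKM in every macrophage and endothelial sample and between 0 and 2.84 FPKM in stromal samples.

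After reversal, PT levels of some members came down from those in UUO. Of the 9 members tested, 4 were called lower in rUUO than in UUO (Havcr1, Lcn2, Clu and Krt7), where 3.15% of all genes tested were called lower. The fall of Krt7 was 1.36 (SE 0.31, adjusted p = 0.0280). Differences were −0.81 for Krt8 (adjusted p = 0.0927), −0.75 for Krt18 (adjusted p = 0.208) and −0.29 for Krt19 (adjusted p = 0.738, 95% interval −1.26 to 0.67), none of them called. The share of the rise left in rUUO was 64.2% for Krt7, 67.2% for Krt8, 77.4% for Cd44, 83.6% for Krt18 and 91.9% for Krt19. The call of Krt7 was lost under 6 of the other settings (adjusted p between 0.0555 and 0.124). Rescaling without mitochondrial genes and quantile normalisation were among these. The Krt7 call was also lost when UUO replicate 1, 2 or 3 or rUUO replicate 2, 3 or 4 was left out (adjusted p between 0.0530 and 0.0840). That of Lcn2 was lost without rUUO replicate 2 (adjusted p = 0.0637). Without that replicate the difference for Krt19 was 0.13. The call of Lcn2 was also lost without the filter on low values and in the fit on all 4 populations (adjusted p between 0.0533 and 0.0911).

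**Figure D2:**
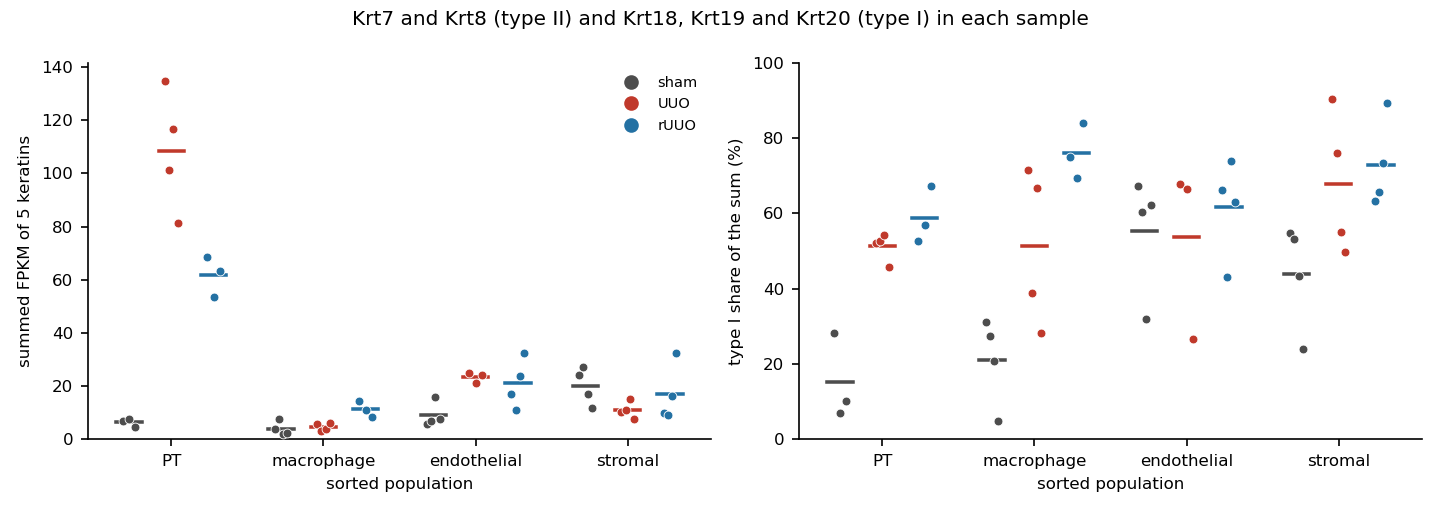
Summed FPKM of Krt7, Krt8, Krt18, Krt19 and Krt20 (left) and the percentage of that sum held by the type I chains Krt18, Krt19 and Krt20 (right) in each of 44 samples, with a line at each group mean. In PT cells the sum rises from 4.56 to 7.54 FPKM in sham to 81.38 to 134.93 FPKM in UUO, and the type I share from 15.2% to 51.2% on average. The sham share rests on type I sums of at most 1.89 FPKM.

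Summed over the 5 keratins, PT cells held 6.26 ± 1.53 FPKM (SD, n = 3) in sham, 108.5 ± 22.8 FPKM (SD, n = 4) in UUO and 61.9 ± 7.58 FPKM (SD, n = 3) in rUUO. The type I share was 15.2 ± 11.5% in sham, 51.2 ± 3.74% in UUO and 58.9 ± 7.55% in rUUO. In sham it rests on type I sums of 1.89, 0.53 and 0.46 FPKM, near the floor of the values. The lowest UUO share, 45.8%, lay above the highest sham share, 28.3%, while UUO and rUUO overlapped. Of 54 protein-coding keratin genes in the table, 49 are not members, and of these Krt23 and Krt80 alone passed the minimum in PT cells. Krt80, a type II keratin, was called higher in UUO (2.67, SE 0.40, adjusted p = 0.000212), and Krt23 was not called (1.16, adjusted p = 0.0933).

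Krt8 and Krt18 lie next to each other on chromosome 15 on opposite strands (mm10, Krt8 at 101996711 to 102004342 and Krt18 at 102028216 to 102032026), with their start sites facing each other across 23873 bases, and Krt7 lies on the same chromosome at 101411043 to 101430313. Krt19 (100140810 to 100148665) and Krt20 (99428403 to 99438150) lie on chromosome 11. The 250 bases before the RefSeq start site (GRCm38.p6, the assembly of mm10) are shown for the 4 keratins that have an entry, since each had every UUO sample above every sham sample in PT cells, at unequal levels, with Krt20 under the minimum for testing. Capitals mark matches on either strand to any of 7 motifs searched.
Krt7 (chr15:101412153-101412402, plus strand): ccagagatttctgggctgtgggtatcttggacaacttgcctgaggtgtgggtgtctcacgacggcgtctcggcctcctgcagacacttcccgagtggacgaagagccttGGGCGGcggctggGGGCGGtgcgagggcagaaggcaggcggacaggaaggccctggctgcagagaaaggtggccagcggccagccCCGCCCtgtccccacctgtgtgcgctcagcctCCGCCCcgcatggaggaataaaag
Krt8 (chr15:102004343-102004592, minus strand): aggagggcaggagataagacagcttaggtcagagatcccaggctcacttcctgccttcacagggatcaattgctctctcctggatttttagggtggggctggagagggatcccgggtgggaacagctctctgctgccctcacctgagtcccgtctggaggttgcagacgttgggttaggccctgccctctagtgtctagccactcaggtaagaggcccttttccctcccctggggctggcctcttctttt
Krt18 (chr15:102027966-102028215, plus strand): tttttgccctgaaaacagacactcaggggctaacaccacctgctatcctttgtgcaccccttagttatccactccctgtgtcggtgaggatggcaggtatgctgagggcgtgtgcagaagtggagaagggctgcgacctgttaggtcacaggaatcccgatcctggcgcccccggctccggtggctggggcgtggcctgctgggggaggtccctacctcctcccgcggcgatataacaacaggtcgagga
Krt20 (chr11:99438154-99438403, minus strand): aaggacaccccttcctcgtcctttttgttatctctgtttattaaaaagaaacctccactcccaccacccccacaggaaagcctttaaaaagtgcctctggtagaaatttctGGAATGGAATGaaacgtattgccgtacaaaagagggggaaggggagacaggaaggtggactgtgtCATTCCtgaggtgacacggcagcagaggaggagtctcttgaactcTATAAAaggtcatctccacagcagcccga

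The capitals in Krt7 are 4 GC boxes (GGGCGG, present in 32.7% of 32851 promoter windows of this length), and those in Krt20 are 3 TEAD motifs (GGAATG, 12.6% of windows), of which 2 overlap by 1 base, and a TATA box (TATAAA, 12.4%) 29 bases before the start site. The windows of Krt8 and Krt18 held none of the 7 motifs. AP-1 (TGANTCA, 6.75% of windows) was found before both start sites of Prom1 and before no other member, and Lcn2 held 1 GC box. STAT (TTCNNNGAA, 7.02%), the NF-kB motif (0.356%) and the CCAAT box (33.8%) were searched too, and of these the CCAAT box matched once, in Prom1. Of the 10 members, 8 had an entry, and Clu and Krt19 had none. A match here describes the letters of the window and no binding.

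Most listed genes of tubule injury and of the keratin network were also called higher in PT cells after UUO. The lists were chosen with earlier results of these data known, so their counts are not independent support. Of 28 further injury and repair genes, 27 were called higher in UUO than sham (median change 2.58), 23 were called higher in rUUO than sham and 5 were called lower in rUUO than UUO. Of all genes tested, 27.9%, 6.52% and 3.15% were called in the same order. The largest rises among them were those of Cd24a, a surface glycoprotein of progenitor-like epithelium (5.20, SE 0.20), the complement component C3 (4.59, SE 0.33), ceruloplasmin, Cp (4.53, SE 0.36), and the tight junction protein Cldn4 (4.22, SE 0.27). The integrin chain Itgb8 was the 1 gene not called (−0.54, adjusted p = 0.224). Of 12 genes listed as keratin partners and linkers, desmosomal proteins among them, 9 were called higher in UUO (median change 1.55), beside 27.9% of all genes. They included Dsp (desmoplakin, 2.71, SE 0.27), Sfn (2.22, SE 0.37), Dsg2 (1.86, SE 0.29) and Plec (plectin, 1.81, SE 0.26). Of these 12, 6 were called higher in rUUO than sham, and Dsp alone was called lower in rUUO than UUO (−1.03, adjusted p = 0.0488).

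Ligands, receptors and partners of the members were mixed. Of 18 such genes 11 passed the minimum in PT cells, 4 were called higher in UUO and 1 was called lower. Of all 11416 genes tested, 27.9% were called higher and 561 genes were called lower. The 4 of 11 called higher lie near the first share. Spp1, which encodes the Cd44 ligand osteopontin, rose from 174 ± 24.3 FPKM (SD, n = 3) in sham to 3124 ± 402 FPKM (SD, n = 4) in UUO and fell to 695 ± 120 FPKM (SD, n = 3) in rUUO. Lrp2, the megalin receptor that takes up filtered Lcn2 protein, fell by 1.33 (SE 0.25, adjusted p = 0.00132) in UUO. Cd74 (1.72, SE 0.27), a partner of Cd44 in binding Mif, and Msn (moesin, 1.23, SE 0.22), which links Cd44 to actin, were called higher, while Mif itself changed by −0.09 (adjusted p = 0.862).

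Summed markers of other epithelia were also higher in PT UUO samples than in PT sham samples. The 12 markers of the thick limb, distal tubule and collecting duct summed to 59.4 to 68.8 FPKM in sham, reached 269 to 358 FPKM after UUO and stood at 131 to 247 FPKM after reversal. Of the 11 that passed the minimum, 6 were called higher in UUO, beside 27.9% of all genes tested. Umod, the most abundant of them, changed by 3.01 (SE 0.29) and the proton pump subunit Atp6v1b1 by 3.98 (SE 0.21), whereas Slc12a3 (0.16) and Aqp3 (0.48) were not called. Urothelial markers summed to 0.15 to 1.00 FPKM in sham, 2.03 to 13.7 FPKM in UUO and 7.79 to 14.9 FPKM in rUUO, with Krt5, Upk1a, Upk1b, Upk2 and Upk3a at 0 in every sham sample and Upk3a at 0 in every UUO sample. PT markers summed to 2249 to 3325 FPKM in UUO, and 8 of 10 were called lower, beside 561 of all 11416 genes tested. Parietal cell and podocyte markers summed to 17.1 to 27.7 FPKM in sham, 46.2 to 79.3 FPKM in UUO and 45.5 to 57.0 FPKM in rUUO, with Pax8, which tubule cells also express, the most abundant. The part of these cells in the members' rise was not tested.

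**Figure D3:**
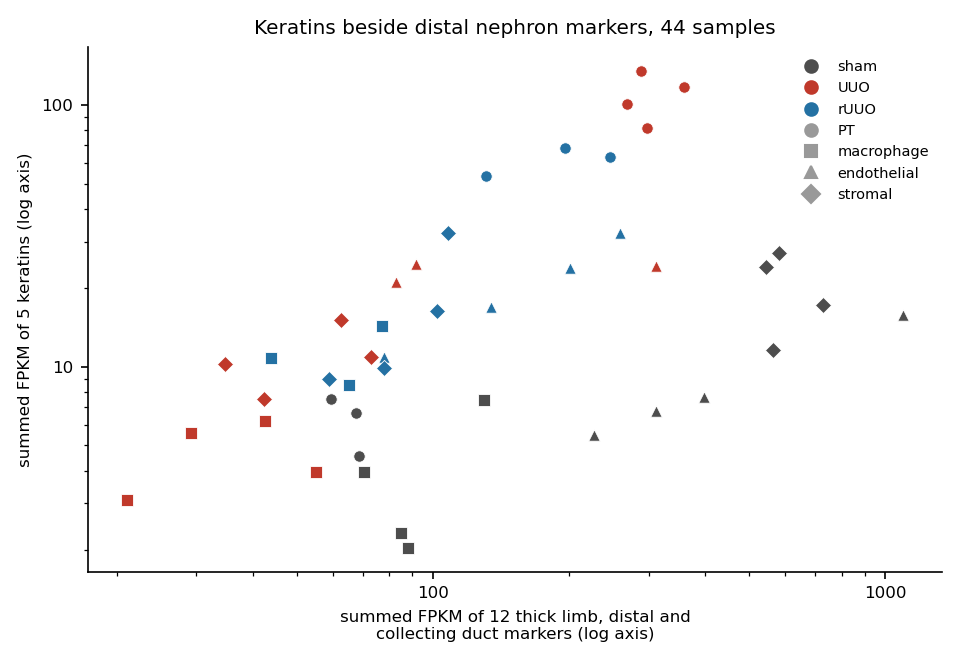
Summed FPKM of the 5 keratins against the summed FPKM of 12 thick limb, distal and collecting duct markers in 44 samples, both on log axes, with colour for surgery and symbol for population. PT UUO samples hold the highest keratin sums at 269 to 358 FPKM of distal markers. Stromal sham samples hold 544 to 726 FPKM of distal markers with keratin sums of 11.6 to 27.1 FPKM. Endothelial sham samples hold 226 to 1094 FPKM of distal markers with keratin sums of 5.5 to 15.8 FPKM. Umod is the most abundant of the 12 markers in every group, so the sums need not follow collecting duct cells. The part of distal nephron cells in the keratin sums was not tested.

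The rise of the members after UUO was larger in PT cells than in the other populations for most genes. The change in PT cells minus the change in macrophages was called positive for 8 of 9 members (13.7% of all genes), minus that in endothelial cells for 6 (10.1%) and minus that in stromal cells for 7 (23.0%). For rUUO against sham the counts were 4 (3.34%), 3 (2.22%) and 6 (6.49%). In each of these comparisons the PT samples are shared. The difference for Havcr1 was 5.27 against macrophages, 4.25 against endothelial cells and 6.12 against stromal cells. The difference for Clu in the same order was 4.08, 4.48 and 5.67. For Krt8 against endothelial cells it was 0.54 (95% interval −0.54 to 1.62) and for Cd44 against stromal cells 0.20 (95% interval −0.70 to 1.11), neither of them called. The call of Cd44 against endothelial cells in UUO (1.72) was lost after quantile normalisation (adjusted p = 0.0597).

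**Figure D4:**
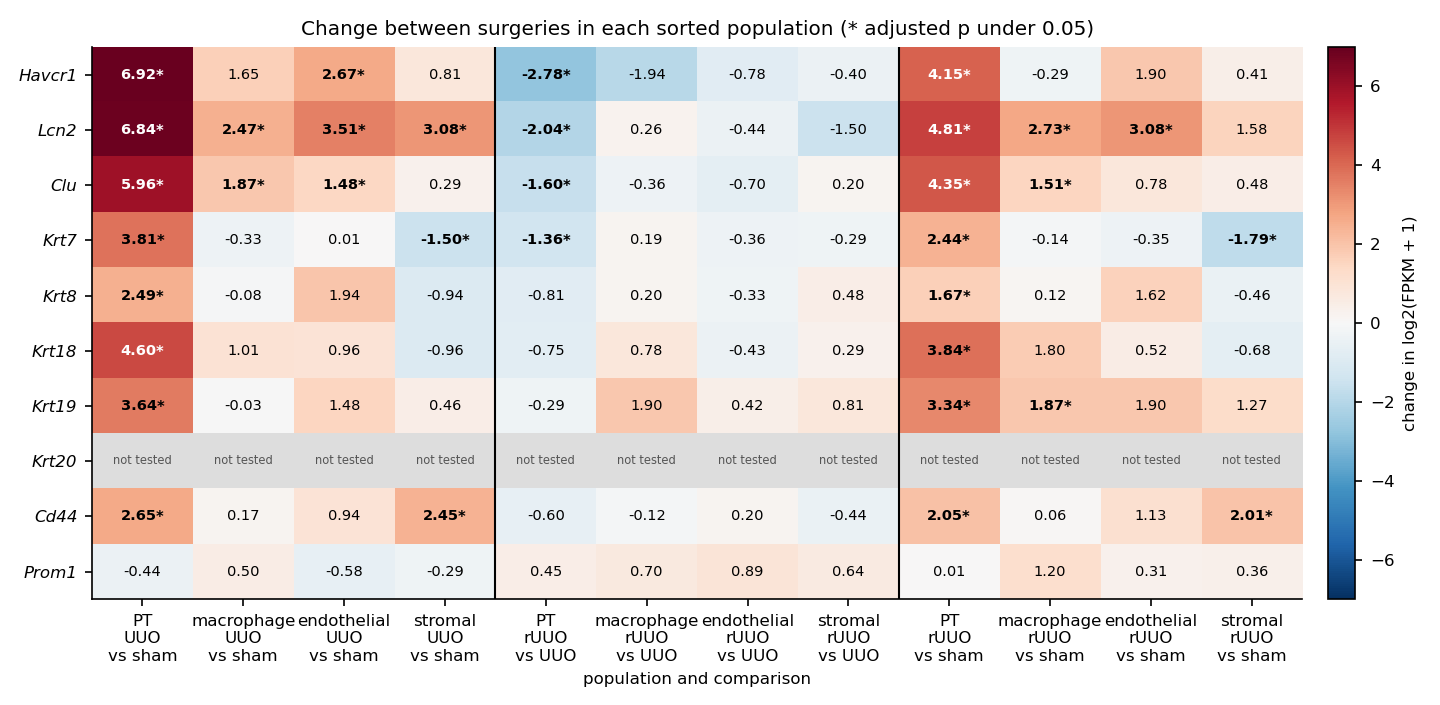
Change in log2(FPKM + 1) of each gene (rows) in each population and comparison (columns), with an asterisk where the limma adjusted p was under 0.05 and grey where the gene was not tested. Lcn2 is called higher in UUO than sham in all 4 populations, from 2.47 in macrophages to 6.84 in PT cells, while Krt7 is higher in PT cells (3.81) and lower in stromal cells (−1.50).

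Lcn2 was the 1 member called higher after UUO in all 4 populations with the filter on low values, and in 3 of them without it. In macrophages it had 1.99, 0.53, 2.59 and 0.19 FPKM in sham, 16.78, 8.36, 9.52 and 9.55 FPKM in UUO, and 39.61, 7.04 and 7.34 FPKM in rUUO. In endothelial cells it had 2.0, 1.26, 14.44 and 2.72 FPKM in sham, 45.88, 36.65 and 73.07 FPKM in UUO, and 45.6, 16.9, 41.04 and 55.56 FPKM in rUUO. In stromal cells it had 4.94, 5.9, 12.64 and 1.67 FPKM in sham, 52.88, 47.18, 22.96 and 123.32 FPKM in UUO, and 36.06, 7.83, 16.04 and 20.54 FPKM in rUUO. UUO and sham samples did not overlap in any of the 3 populations, although sham replicate 3 of the endothelial and stromal cells stood above the other sham samples. The changes from sham to UUO were 2.47 (SE 0.51, adjusted p = 0.0144), 3.51 (SE 0.54, adjusted p = 0.00213) and 3.08 (SE 0.53, adjusted p = 0.000491). From sham to rUUO they were 2.73 in macrophages (adjusted p = 0.0132), 3.08 in endothelial cells (adjusted p = 0.00365) and 1.58 in stromal cells (adjusted p = 0.0544, not called). In macrophages the call in UUO was lost without sham replicate 2 (adjusted p = 0.0570), and that in rUUO without sham replicate 2 or rUUO replicate 1 (adjusted p between 0.0534 and 0.0641). Without the filter on low values Lcn2 was not called in macrophages in UUO (adjusted p = 0.0661) or rUUO (adjusted p = 0.0648), nor in endothelial cells in rUUO (adjusted p = 0.0580).

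Lcn2 is also a granule protein of neutrophils. The 8 neutrophil markers summed to 26.1 to 78.7 FPKM in macrophage sham, 50.4 to 236 FPKM in macrophage UUO and 99.8 to 129 FPKM in macrophage rUUO, with Csf3r the most abundant. Ltf, Ly6g and Retnlg were at 0 in every macrophage sham sample, Camp and Ly6g in every macrophage rUUO sample, and none in every macrophage UUO sample. In stromal cells the 8 markers summed to 0.14 to 1.20, 8.75 to 59.2 and 4.85 to 42.4 FPKM in sham, UUO and rUUO, with S100a9 the most abundant in the last 2 groups and Camp and Ly6g at 0 in all 3. In endothelial cells they summed to 4.77 to 15.4, 7.35 to 10.7 and 6.42 to 9.37 FPKM, and in PT cells to at most 3.98 FPKM. Their part in the Lcn2 values was not tested.

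Clu was already abundant in sham endothelial and stromal cells and rose in endothelial cells and macrophages. Endothelial samples had 75.8, 83.97, 104.44 and 63.83 FPKM in sham, 167.82, 195.11 and 353.35 FPKM in UUO, and 133.09, 111.34, 140.01 and 180.07 FPKM in rUUO. Macrophage samples had 4.94, 18.03, 9.55 and 10.22 FPKM in sham, 34.98, 36.67, 50.98 and 33.1 FPKM in UUO, and 47.64, 25.42 and 21.44 FPKM in rUUO. Neither population had an overlap of sham with UUO or rUUO. The change from sham to UUO was 1.48 (SE 0.25, adjusted p = 0.00504) in endothelial cells and 1.87 (SE 0.33, adjusted p = 0.00548) in macrophages. Stromal samples had 56.8, 65.21, 74.39 and 67.08 FPKM in sham, 49.57, 91.03, 81.16 and 112.44 FPKM in UUO and 117.29, 72.27, 86.2 and 98.07 FPKM in rUUO, and the change in UUO was 0.29 (95% interval −0.20 to 0.77, adjusted p = 0.387). The order of mean Clu levels turned over, from endothelial and stromal cells above PT cells in sham to PT cells above both in UUO, although endothelial UUO replicate 4 exceeded the lowest PT UUO sample.

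**Figure D5:**
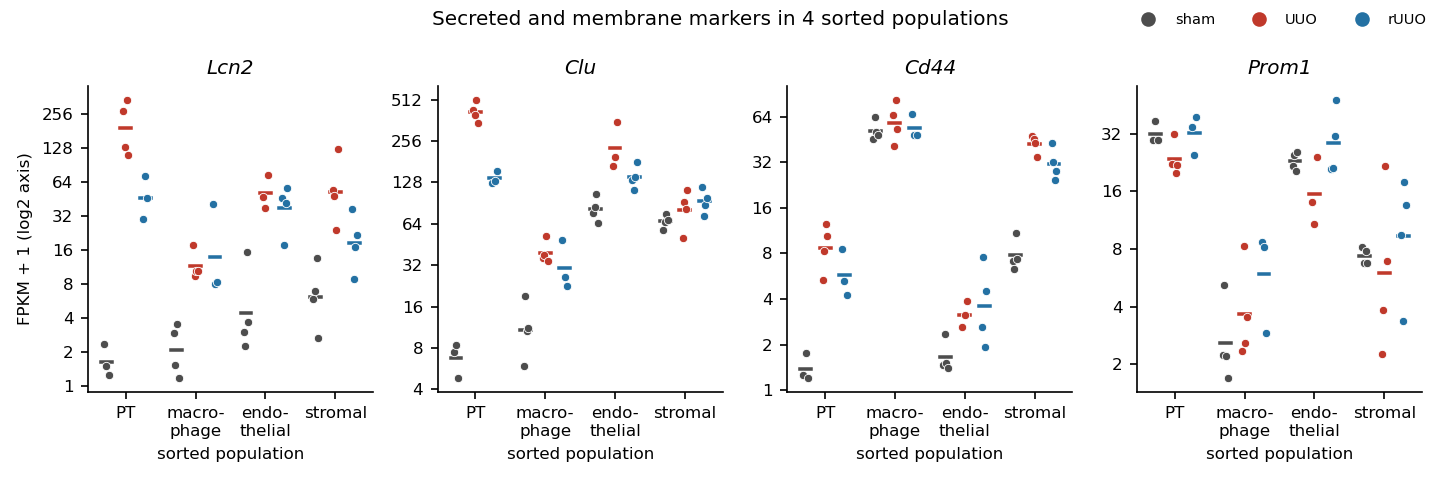
FPKM + 1 (log2 axes, 1 scale per gene) of Lcn2, Clu, Cd44 and Prom1 in the 4 populations, with 1 point per sample, colour for surgery and a line at the mean of the log2 values. Cd44 is high in macrophages in every group, 39.7 to 81.46 FPKM, and separates sham from both other groups in stromal cells.

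Cd44 had its highest levels in macrophages, where no change was called, and rose in stromal cells. Macrophage samples had 44.75, 62.57, 49.74 and 47.58 FPKM in sham, 64.18, 39.7, 81.46 and 51.81 FPKM in UUO and 66.0, 47.23 and 47.22 FPKM in rUUO. The groups overlapped, and the change in UUO was 0.17 (95% interval −0.31 to 0.65, adjusted p = 0.734). Stromal cells had 6.11, 5.35, 9.99 and 6.33 FPKM in sham, 46.76, 44.19, 41.97 and 33.8 FPKM in UUO, and 41.93, 31.3, 23.46 and 27.19 FPKM in rUUO. Sham stromal cells lay below all others, with changes of 2.45 (SE 0.23, adjusted p = 1.87e-06) in UUO and 2.01 (SE 0.23, adjusted p = 2.31e-05) in rUUO. In endothelial cells Cd44 ranged from 0.4 to 1.36 FPKM in sham, 1.62 to 2.86 FPKM in UUO and 0.93 to 6.58 FPKM in rUUO, with no call. Macrophage markers in PT samples summed to 13.8 to 27.6 FPKM in sham and 13.9 to 35.4 FPKM in UUO with none of 4 called, and stromal markers there to 15.8 to 21.5 and 19.1 to 42.7 FPKM with 1 of 4 called (Dcn).

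In macrophages 2 members were called higher in UUO than sham (Lcn2 and Clu, where 2.86% of all genes were called higher) and 3 in rUUO than sham (with Krt19, where 1.89% were). Krt19 had 1.24, 0.07, 0.14 and 0.11 FPKM in macrophage sham, 0.12, 0.68, 0.14 and 0.31 FPKM in UUO, and 7.34, 4.8 and 1.31 FPKM in rUUO. Its rUUO samples lay above all others, although the lowest of them was close to sham replicate 1, and the change from sham was 1.87 (SE 0.48, adjusted p = 0.0479). The rUUO call of Krt19 was lost without sham replicate 2, 3 or 4, UUO replicate 1, 3 or 4, or rUUO replicate 1 or 4 (adjusted p between 0.0535 and 0.207), and under 5 other settings, the fit without the filter on low values among them (adjusted p between 0.0547 and 0.109). The call of Clu in rUUO (1.51, adjusted p = 0.0348) was lost without sham replicate 1, 3 or 4, UUO replicate 4 or any 1 rUUO replicate (adjusted p between 0.0517 and 0.172), and under 3 other settings, the unfiltered fit among them (adjusted p between 0.0659 and 0.109). Between rUUO and UUO no member was called in macrophages, nor was any gene (0.0% by limma, with 945 genes at an unadjusted p under 0.05), with 2 members at an unadjusted p under 0.05 (Krt19 and Havcr1). Havcr1 ranged from 0.38 to 1.32 FPKM in macrophage sham, 1.35 to 16.76 FPKM in UUO and 0.17 to 0.58 FPKM in rUUO, and its change in UUO was 1.65 (adjusted p = 0.0887).

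In endothelial cells 3 members were called higher in UUO than sham (Lcn2, Clu and Havcr1), where 1.28% of all genes were called higher, and Lcn2 alone in rUUO than sham, where 1.4% were. Havcr1 had 1.84, 0.09, 0.31 and 0.54 FPKM in endothelial sham, 7.16, 16.33 and 6.26 FPKM in UUO and 13.43, 0.38, 4.63 and 9.72 FPKM in rUUO. UUO lay above sham and rUUO spread over both, and the change in UUO was 2.67 (SE 0.65, adjusted p = 0.0467). The call was lost without any 1 sham or UUO sample or without rUUO replicate 4 or 6 (adjusted p between 0.0501 and 0.171). It was also lost under 6 other settings (adjusted p between 0.0505 and 0.236), rescaling without mitochondrial genes and quantile normalisation among them. Krt8 had 0.33, 0.69, 3.15 and 0.58 FPKM in sham, 5.84, 2.82 and 15.39 FPKM in UUO and 5.09, 4.22, 4.66 and 6.26 FPKM in rUUO, with a change of 1.94 in UUO that missed the threshold (adjusted p = 0.0539). Between rUUO and UUO no member was called (0.0597% of all genes by limma), with 2 members at an unadjusted p under 0.05 (Clu and Prom1). PT markers summed to 319 to 576 FPKM in endothelial sham and 181 to 279 FPKM in endothelial UUO, with Aqp1, which endothelial cells also express, the most abundant.

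In stromal cells Krt7 fell, the opposite direction from PT cells. It had 7.6, 9.37, 6.58 and 3.36 FPKM in stromal sham, 0.48, 1.52, 4.52 and 1.22 FPKM in UUO, and 1.8, 0.65, 1.42 and 0.84 FPKM in rUUO. UUO replicate 3 exceeded the lowest sham sample and all rUUO samples lay below sham. Krt7 fell by 1.50 in UUO (SE 0.42, adjusted p = 0.0139) and by 1.79 in rUUO (SE 0.42, adjusted p = 0.00682), and the UUO call was lost without sham replicate 2 (adjusted p = 0.0514), while the rUUO call was lost under 1 setting other than leaving out a sample (adjusted p = 0.0672). Krt8 (−0.94, adjusted p = 0.0533) and Krt18 (−0.96, adjusted p = 0.114) were not called in UUO, and Krt8 in sham, 3.25, 3.3, 3.12 and 5.44 FPKM, lay above its UUO values of 0.49, 1.08, 2.21 and 2.55 FPKM. Krt19 ranged from 0.28 to 8.75 FPKM in sham, 2.26 to 6.5 FPKM in UUO and 3.02 to 23.54 FPKM in rUUO. The summed thick limb, distal and collecting duct markers moved with Krt7 in these samples. They went from 544 to 726 FPKM in sham to 34.7 to 73.0 FPKM in UUO and 59.0 to 107.8 FPKM in rUUO. Of these markers 12 of 12 were called lower in both, where 13.0% and 5.57% of all genes were. Their part in the fall of the keratin was not tested.

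Among the 9 members tested in stromal cells, 2 were called higher in UUO than sham (Lcn2 and Cd44, 13.4% of all genes called higher) and 1 lower (Krt7, 13.0% called lower). Against sham, rUUO had 1 called higher (Cd44, 11.6%) and 1 called lower (Krt7, 5.57%). Between rUUO and UUO no member was called (4.17% of all genes), with 1 at an unadjusted p under 0.05 (Lcn2, −1.50). Prom1 had 7.22, 5.72, 6.79 and 5.77 FPKM in stromal sham and spread from 1.26 to 20.71 FPKM in UUO and 2.38 to 16.94 FPKM in rUUO. In endothelial cells Prom1 ranged from 19.36 to 24.71 FPKM in sham, 9.82 to 23.07 FPKM in UUO and 19.87 to 47.06 FPKM in rUUO, a level near that of PT cells, and in macrophages it was at most 7.65 FPKM. Under the main settings Prom1 was called in no comparison between surgeries. In PT cells it was called lower in UUO than sham after rescaling without mitochondrial genes and after quantile normalisation.

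Sham levels were also compared between PT cells and each other population, and 4, 5 and 7 of the 9 members were called against macrophages, endothelial and stromal cells. Against sham macrophages 2 members were called higher (Prom1 and Krt8) and 2 lower (Cd44 and Clu), where 61.7% of all genes were called either way. The lower call of Clu (−0.68) turned to 0.36 after rescaling without mitochondrial genes and to 0.39 after quantile normalisation. Against sham endothelial cells Krt8 was called higher and Clu, Krt7, Krt18 and Lcn2 lower (60.6% of all genes called), and against sham stromal cells Prom1 was called higher and Clu, Cd44, Krt7, Lcn2, Krt18 and Krt19 lower (65.5% called). With quantile normalisation Lcn2, Krt7 and Krt18 were no longer called against endothelial cells, nor Lcn2, Krt18 and Krt19 against stromal cells (adjusted p between 0.153 and 0.610), and rescaling without mitochondrial genes ended the calls of Lcn2 and Krt7 against endothelial and of Krt19 against stromal cells (adjusted p between 0.0552 and 0.144). The median over all genes in these 3 comparisons was −0.84, −0.92 and −1.05. The differences of Clu from endothelial (−3.60, SE 0.29) and stromal cells (−3.31, SE 0.29) and of Cd44 from macrophages (−5.22, SE 0.33) were larger than that shift, whereas that of Clu from macrophages was smaller than it.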

How the data were processed

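RNA of 4 sorted mouse kidney populations was sequenced after cDNA amplification with the Ovation RNA-Seq System V2. The authors deposited FPKM values for 53465 genes on mm10, rounded to 2 decimals. Per the labels, the processing notes name FastQC, RSEM, Bowtie2 and DESeq2 without a version, role or order. Of 46 value columns 44 were used, because 2 carry the same name, that of endothelial UUO replicate 3, and neither can be assigned by it. That sample is not analysed here, nor is PT sham replicate 3, which has no column of its own. For a PT sample whose title holds SHAM as well as UUO, the treatment label decided (UUO). The labels do not say whether samples of a group came from separate mice, so p-values measure the spread between these samples.

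Values were tested as log2(FPKM + 1) with limma 3.58.1 in R 4.3.3 (moderated by eBayes, with the prior variance trended on intensity) on genes that averaged 1 FPKM or more over the samples of a population, and all samples of a population shared 1 estimate of the spread. A fold change on this scale understates the change of low genes. A gene scarce in sham can pass the minimum through the groups where it is high. Differences between populations and between sham populations were contrasts in a fit over all 44 samples and 14332 genes. All 10 members are named throughout. From each further list, the 4 called genes with the largest change in PT UUO against sham and up to 2 abundant genes not called could be named, and Spp1 belongs to 2 lists. Genes of the marker lists are named as the most abundant of their list or by being at 0. The members and lists were chosen with earlier results of these data known. The limma fit was tested on simulated data. Other settings tried were a smaller pseudocount (0.1), all genes unfiltered, TPM, rescaling without the 37 mitochondrial genes, quantile normalisation, a fit on all populations, no intensity trend, a replicate block and each replicate left out in turn. Tables were made with Python 3.11.15, numpy 2.4.6, pandas 2.3.3 and matplotlib 3.10.9.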

Additional observations from a re-analysis of the deposited data

Results flagged for a closer look

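A single sample stood apart in 1 of 65 groups of 4 samples examined, by Dixon's criterion. Stromal sham replicate 4 had 5.44 FPKM of Krt8, and its gap to the next sample took 0.904 of the group's range on the log2 scale. About 1 group in 20 is marked by chance.

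The change of a member from sham differed between PT cells and another population in 34 contrasts, by limma interaction with an adjusted p under 0.05, and each difference below is the change in PT cells minus the other change on the log2(FPKM + 1) scale. Against macrophage samples, the difference for UUO was 5.27 for Havcr1, 4.37 for Lcn2, 4.08 for Clu, 4.14 for Krt7, 2.56 for Krt8, 3.59 for Krt18, 3.66 for Krt19 and 2.48 for Cd44. Against macrophage samples, the difference for rUUO was 4.44 for Havcr1, 2.84 for Clu, 2.59 for Krt7 and 2.00 for Cd44. Against endothelial cell samples, the difference for UUO was 4.25 for Havcr1, 3.33 for Lcn2, 4.48 for Clu, 3.80 for Krt7, 3.64 for Krt18 and 1.72 for Cd44. Against endothelial cell samples, the difference for rUUO was 3.58 for Clu, 2.79 for Krt7 and 3.32 for Krt18. Against stromal cell samples, the difference for UUO was 6.12 for Havcr1, 3.76 for Lcn2, 5.67 for Clu, 5.31 for Krt7, 3.43 for Krt8, 5.56 for Krt18 and 3.18 for Krt19. Against stromal cell samples, the difference for rUUO was 3.74 for Havcr1, 3.22 for Lcn2, 3.87 for Clu, 4.24 for Krt7, 2.13 for Krt8 and 4.52 for Krt18. All 34 differences were positive, with 9 members tested in each comparison. Of all genes, 13.7% (UUO) and 3.34% (rUUO) were called positive against macrophages. Those shares were 10.1% and 2.22% against endothelial cells and 23.0% and 6.49% against stromal cells. The same PT samples enter every comparison, so the 34 differences are not independent of each other.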

How the results depend on the processing

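The 8 members called in PT cells were called in UUO and in rUUO against sham under every alternative tried. Counts of members called moved elsewhere. Without the filter on low values they went from 4 to 2 in PT rUUO against UUO, from 2 to 1 in macrophage UUO against sham, from 3 to 0 in macrophage rUUO against sham and from 1 to 0 in endothelial rUUO against sham. In the fit on all 4 populations they were 2 in PT rUUO against UUO and 4 in endothelial rUUO against sham. Of same-numbered samples, 1 of 35 pairs within a population had r over 0.1 (median 0.010), and 2 of 57 pairs between populations (median 0.0093). Of differently numbered samples, 0 of 126 pairs within a population (median −0.0055) and 0 of 184 between populations (median −0.0030) did. The labels do not say what the numbers stand for, and they were not taken to pair samples except in the replicate block. With the replicate block the count was 1 in macrophage rUUO against sham and 1 in stromal rUUO against sham, where Krt7 lost its call (adjusted p = 0.0672). Leaving out 1 replicate gave 2 to 4 in PT rUUO against UUO, 1 to 3 in macrophage UUO and 0 to 4 in macrophage rUUO against sham, 2 to 3 in endothelial UUO and 1 to 3 in endothelial rUUO against sham, and 2 to 4 in stromal UUO and 2 to 3 in stromal rUUO against sham. The cause was not tested.

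Directions turned for values near 0. Krt19 in PT rUUO against UUO was 0.13 without PT rUUO replicate 2, and ranged from −0.88 to 0.13 when 1 replicate was left out. The value of Prom1, PT rUUO against sham, was −0.0916 without mitochondrial genes, −0.0634 after quantile normalisation, and −0.12 to 0.21 when 1 replicate was left out, below 0 without sham replicate 1 or 4 or rUUO replicate 2 or 4. Clu in PT sham against macrophage sham was 0.36 without mitochondrial genes and 0.39 after quantile normalisation.

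Over all alternatives the genes called ranged from 2435 to 3908 in PT UUO against sham, 120 to 515 in PT rUUO against UUO, 484 to 1083 in PT rUUO against sham, 273 to 1018, 0 to 35 and 115 to 753 in the same order in macrophages, 101 to 423, 0 to 67 and 68 to 452 in endothelial cells, and 116 to 973 in stromal rUUO against UUO and 1574 to 2733 in stromal rUUO against sham. In PT UUO against sham the genes called higher and lower were 3186 and 561, with 1957 and 877 after rescaling without mitochondrial genes and 1218 and 1217 after quantile normalisation. In PT rUUO against UUO they were 77 and 360, with 149 and 158 and with 211 and 148 in the same order. Krt20 was below the minimum in every population and was tested only in the setting without the filter on low values.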
